A study of Mus musculus with 32 samples.

Results

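Amyotrophic lateral sclerosis (ALS) is a disease of motor neurons, and mutations or repeat expansions in a set of human genes cause it or raise its risk. The mouse orthologues of 9 of these genes, *Tardbp*, *C9orf72*, *Optn*, *Tbk1*, *Sqstm1*, *Vcp*, *Grn*, *Ubqln2* and *Atxn2*, were followed here in RNA-seq of SOD1G93A mice, a model that carries a different ALS gene. They were chosen by name, with earlier results of these data known: the rows of the 3 count tables whose Ensembl identifier belongs to 1 of the 9 symbols. All 9 were present in each table, of 74021 genes in all, and all 9 passed the filter on low counts in each.

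The study asked what the immune checkpoint receptor LAG-3 marks and does in microglia, the resident macrophages of the nervous system. In the first table, CD11b+/CD45int microglia were sorted from lumbar spinal cord: 4 libraries of WT microglia, which carry no transgene and whose age the labels do not give, and 5 libraries of LAG-3-low microglia and 5 of LAG-3-high microglia of SOD1G93A mice, at P140 by the study's methods and gated on surface LAG-3. In the second, microglia were sorted from mice with intact LAG-3 (SOD1G93A/LAG-3+/+) and from knockouts (SOD1G93A/LAG-3-/-) at P120 and P140, with 3 libraries per group. In the third, whole lumbar spinal cord of both genotypes was sequenced at P140, with 3 libraries each. Every animal outside the WT group carried the human mutant SOD1 transgene, which is expressed in many cell types. The LAG-3-/- mice carry a germline knockout, so LAG-3 is missing from all of their cells and not from microglia alone. The sources used here do not give how many animals went into a library or whether libraries with the same number share an animal, and p-values measure the spread between these libraries.

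*Lag3* itself checked the labels. It was at 0.0239 to 0.462 CPM in the 6 LAG-3-/- microglia libraries. The LAG-3+/+ microglia libraries held 53.4 to 62.9 CPM at P120 and less, 24.5 to 28.1 CPM, at P140. The study reports that LAG-3 rose with stage in whole lumbar cord, as mRNA by qPCR and as protein by Western blot. By immunostaining it also reports a growing area of LAG-3+/Iba1+ microglia and macrophages. It describes LAG-3 as rising in spinal cord microglia, which the *Lag3* mRNA of these sorted libraries did not do from P120 to P140. The samples and measures differ. In the cord libraries *Lag3* was at 5.50 to 5.72 CPM in LAG-3-/- against 43.4 to 74.5 CPM in LAG-3+/+. In the sort it rose from 0.508 to 9.99 CPM (WT) through 34.8 to 57.8 CPM (LAG-3-low) to 146 to 195 CPM (LAG-3-high). CPM (counts relative to library size) was computed with TMM-scaled library sizes, and totals ranged from 9403475 to 49512632 counts per library. The 7 microglia markers summed to 28073 to 35104 CPM in WT and 15444 to 40226 CPM in all other sorted libraries, and to 789.8 to 1386 CPM in the cord. The 10 neutrophil markers, led by *S100a8* and *Ngp*, summed to 5917 to 70471 CPM in WT and 22071 to 63230 CPM in LAG-3-low libraries but to 1.41 to 7.14 CPM in LAG-3-high ones.

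Most of the 9 proteins act along one route, the removal of damaged proteins and organelles. *Sqstm1* encodes p62 and *Optn* optineurin, receptors that tether ubiquitin-tagged cargo to growing autophagosomes, and *Tbk1* encodes the kinase that phosphorylates both and also signals for interferon. *C9orf72* encodes a subunit of a complex with SMCR8 and WDR41 that acts on autophagy and lysosomes and is abundant in myeloid cells. *Vcp* encodes an ATPase that pulls ubiquitylated proteins out of complexes and membranes, and *Ubqln2* encodes ubiquilin-2, which carries such proteins to the proteasome. *Grn* encodes progranulin, a secreted and lysosomal glycoprotein for which microglia are a main source in the nervous system. *Tardbp* encodes TDP-43, the RNA-binding protein that aggregates in most ALS, and *Atxn2* encodes ataxin-2, an RNA-binding protein of stress granules.

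The genes lie, on GRCm39 with GENCODE vM39, at chr11:102321141-102327874 (*Grn*, plus strand), chr11:50089572-50107684 (*Sqstm1*, minus), chr2:5022703-5068945 (*Optn*, minus), chr10:121382360-121422848 (*Tbk1*, minus), chr4:35191282-35226186 (*C9orf72*, minus), chr4:42979412-43000527 (*Vcp*, minus), chrX:152281223-152284566 (*Ubqln2*, plus), chr4:148696839-148711490 (*Tardbp*, minus) and chr5:121849400-121954556 (*Atxn2*, plus). The canonical transcripts measure 2340 nt in *Grn* to 7491 nt in *Tardbp*, and have 6 to 25 exons except that of *Ubqln2*, which is a single exon. Part of the *Atxn2* transcript, 323 nt, is shared with *Sh2b3* on the opposite strand. The counts of *Sh2b3* came to 924% of those of *Atxn2* in the sorted table, 797% in the stage table and 23.0% in the cord, and the kit used for the microglia does not mark strand. The pseudogene *Vcp-rs* matches *Vcp* over 2421 nt at 99.0% identity, and *Gm13886* matches *Tardbp* over 1202 nt at 93.9%; their counts were at most 0.331% of those of the parent gene in each table.

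*Grn* was by far the most abundant of the 9 in every microglia group, and the cord had another order. In LAG-3-high microglia, *Grn* measured 2006 ± 71.8 CPM per kb of transcript (SD, n = 5). *Vcp* at 121 ± 13.1 and *Sqstm1* at 119 ± 9.26 CPM per kb followed with overlapping libraries, and *Tbk1* came next at 31.5 ± 4.59. The mid-range held *C9orf72* at 22.5 ± 2.64, *Optn* at 13.7 ± 3.89 and *Tardbp* at 10.2 ± 1.16 CPM per kb, with neighbours overlapping. *Atxn2* at 1.49 ± 0.56 and *Ubqln2* at 0.48 ± 0.23 CPM per kb were the lowest. In P140 LAG-3+/+ cord, *Sqstm1* at 139 ± 8.09 and *Grn* at 139 ± 26.2 CPM per kb overlapped (n = 3). *Ubqln2* measured 57.0 ± 5.86 CPM per kb there and ranked 4 of 9, above *Atxn2* at 22.2 ± 1.92. *C9orf72* was lowest at 10.7 ± 0.84 CPM per kb, without separation from *Optn* and *Tbk1*. The microglia and cord tables were made with different kits and scaled separately, so these levels stand side by side and were not tested against each other.

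**Figure D1:**
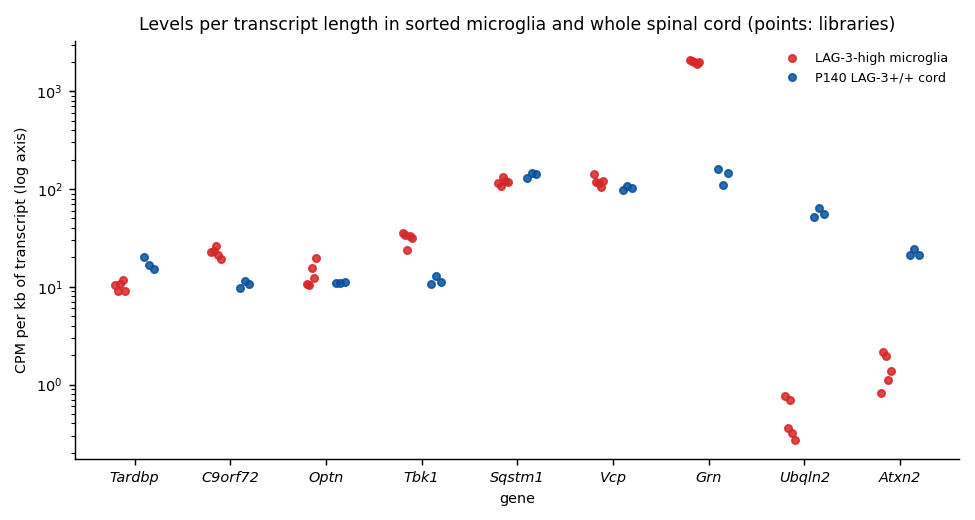
CPM per kb of canonical transcript (log axis) of the 9 genes in the 5 LAG-3-high microglia libraries and the 3 P140 LAG-3+/+ cord libraries; each point is a library. *Grn* stands at 2006 CPM per kb in microglia and 139 in cord, and *Ubqln2* at 0.48 in microglia and 57.0 in cord.

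The first comparison asked how microglia with much LAG-3 on their surface differ from SOD1G93A microglia with little. 2 of the 9 genes rose in LAG-3-high microglia, *Grn* by 2.09-fold and *Sqstm1* by 1.66-fold, and none fell; 1.59% of all 16508 genes tested rose. The median log2 fold change was 0.33 over the 9 genes and -0.02 over all genes tested. *Grn* was at 2204, 2217, 2218, 2043 and 2551 CPM in LAG-3-low libraries and at 4919.6, 4758, 4662, 4456 and 4676 CPM in LAG-3-high ones. The groups were far apart, and the libraries within each lay close together. The log2 fold change was 1.06 ± 0.16 (SE; adjusted p = 0.00198 by edgeR's quasi-likelihood test). *Sqstm1* measured 259.8, 282, 152, 247 and 227 CPM in LAG-3-low and 373, 354, 435, 394 and 382 CPM in LAG-3-high libraries. Its groups did not overlap either, with library 3 the lowest of the LAG-3-low group, and its log2 fold change was 0.73 ± 0.21 (adjusted p = 0.0850). *Grn* also passed in each of the fits with 1 library left out, whereas *Sqstm1* passed in none of those 10 (adjusted p 0.105 to 0.215).

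The other 7 genes did not pass between the sorts. *Tardbp* measured 109, 93.3, 76.1, 147 and 157 CPM in LAG-3-low and 78.3, 67.5, 81.0, 88.3 and 68.6 CPM in LAG-3-high libraries, which overlap. Its log2 fold change was -0.60 ± 0.21 (adjusted p = 0.194), and it passed with DESeq2 (adjusted p = 0.0773) and in a fit of only these groups (adjusted p = 0.0246). *Vcp* had values of 380.0, 393, 331, 353 and 333 CPM against 549.8, 462, 453, 409.9 and 468 CPM, and its groups did not overlap. Its log2 fold change of 0.39 ± 0.18 did not pass (adjusted p = 0.424). *C9orf72* gave 0.40 ± 0.34, *Optn* 0.33 ± 1.11, *Tbk1* 0.23 ± 0.39, *Atxn2* 0.04 ± 0.55 and *Ubqln2* -0.31 ± 1.23 on the log2 scale, all with overlapping libraries. For *Optn* and *Ubqln2* these errors leave changes of over 2-fold in either direction within reach. Neutrophil genes differed between the same sorts, with *Ngp* at 8748 to 24795 CPM in LAG-3-low and 0 to 1.66 CPM in LAG-3-high libraries and *Elane* at 0 in all 5 of the latter. Border macrophage markers summed to 48.6 to 237 and 1.21 to 8.23 CPM, astrocyte markers to 2.14 to 12.8 and 21.1 to 65.7 CPM, and the microglia markers to 15444 to 22745 and 22858 to 25022 CPM, without overlap. The part of these transcripts in the *Grn* and *Sqstm1* values was not tested.

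The comparison with WT microglia asked how these genes differ between each SOD1G93A sort and WT. The sorts were split by surface LAG-3 and the labels give no WT age, so transgene, gate and age cannot be told apart. Neutrophil markers were at 1.41 to 7.14 CPM in the LAG-3-high sort against 5917 to 70471 CPM in WT, which spanned the LAG-3-low libraries. Microglia markers, at 28073 to 35104 CPM in WT, were lower in both sorts (22858 to 25022 CPM, LAG-3-high; 15444 to 22745 CPM, LAG-3-low). How far these differences enter the values against WT was not tested. In LAG-3-high microglia 3 of the 9 genes rose, *Grn*, *Sqstm1* and *Vcp*, where 13.8% of all genes rose, and 2 fell, *Tardbp* and *Atxn2*, where 16.5% of all genes fell. In LAG-3-low microglia *Grn* and *Vcp* rose, against 12% of all genes, and *Atxn2* fell, against 12.9%. The LAG-3-high and LAG-3-low comparisons share the same WT libraries, so their values are not independent. The members' median log2 fold changes were 0.88 and 0.41, and those of all genes tested were -0.08 and 0.04.

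*Grn* measured 1006, 991, 1703 and 1029 CPM in WT libraries, all below the lowest SOD1G93A library at 2043 CPM. It was higher by 1.99 ± 0.17 on the log2 scale in LAG-3-high (adjusted p = 3.99e-06) and by 0.93 ± 0.17 in LAG-3-low microglia (adjusted p = 0.00283). *Vcp* was at 129.6, 247, 212 and 279.9 CPM in WT, also below every SOD1G93A library, and its log2 fold changes were 1.11 ± 0.20 (adjusted p = 0.00174) and 0.72 ± 0.20 (adjusted p = 0.0241). *Sqstm1* measured 114, 184, 246 and 159 CPM in WT libraries and rose by 1.14 ± 0.23 in LAG-3-high microglia (adjusted p = 0.00329). Its level in LAG-3-low microglia overlapped that of WT, with a log2 fold change of 0.41 ± 0.22 (adjusted p = 0.222). Among the 14 libraries, then, *Grn* took 3 separate levels, *Vcp* was set apart in the WT libraries and *Sqstm1* in the LAG-3-high libraries.

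These rises depend on how length and GC content are treated. With an offset for transcript length and GC content in each library, the log2 fold changes against WT became -0.080 for *Sqstm1* and -0.025 for *Vcp* in LAG-3-high, and -0.27 for *Grn* and -0.50 for *Vcp* in LAG-3-low microglia, none of which passed. These offsets also moved the median of all genes to -0.65 (LAG-3-high) and -0.70 (LAG-3-low). With the same offsets centred on the median gene, the rises of *Grn* (1.63, adjusted p = 5.30e-06), *Vcp* (0.83, adjusted p = 0.00558) and *Sqstm1* (0.70, adjusted p = 0.0208) in LAG-3-high microglia all passed, as did *Grn* (0.65, adjusted p = 0.00827) and *Vcp* (0.50, adjusted p = 0.0758) in LAG-3-low microglia. The rise of *Grn* from the LAG-3-low to the LAG-3-high sort passed under both forms (log2 fold changes of 1.12 and 0.98).

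Of the RNA-binding proteins, *Atxn2* was lower than WT in both SOD1G93A sorts and *Tardbp* in the LAG-3-high sort. *Atxn2* measured 31.5, 19.3, 41.2 and 7.42 CPM in WT libraries. It was at 4.69, 3.24, 12.9, 7.07 and 4.49 CPM in LAG-3-low and at 3.66, 9.68, 8.74, 5.04 and 6.20 CPM in LAG-3-high libraries. WT library 4 lay within the range of the SOD1G93A libraries and the other WT libraries lay above it. The log2 fold changes were -1.90 ± 0.59 (LAG-3-high, adjusted p = 0.0339) and -1.94 ± 0.59 (LAG-3-low, adjusted p = 0.0377), with the uncertainty over *Sh2b3* reads described above. *Tardbp* measured 154, 115, 126 and 142 CPM in WT libraries, all above the LAG-3-high libraries, with a log2 fold change of -0.81 ± 0.22 (adjusted p = 0.0204). In LAG-3-low against WT microglia its change was -0.21 ± 0.22 (adjusted p = 0.569).

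**Figure D2:**
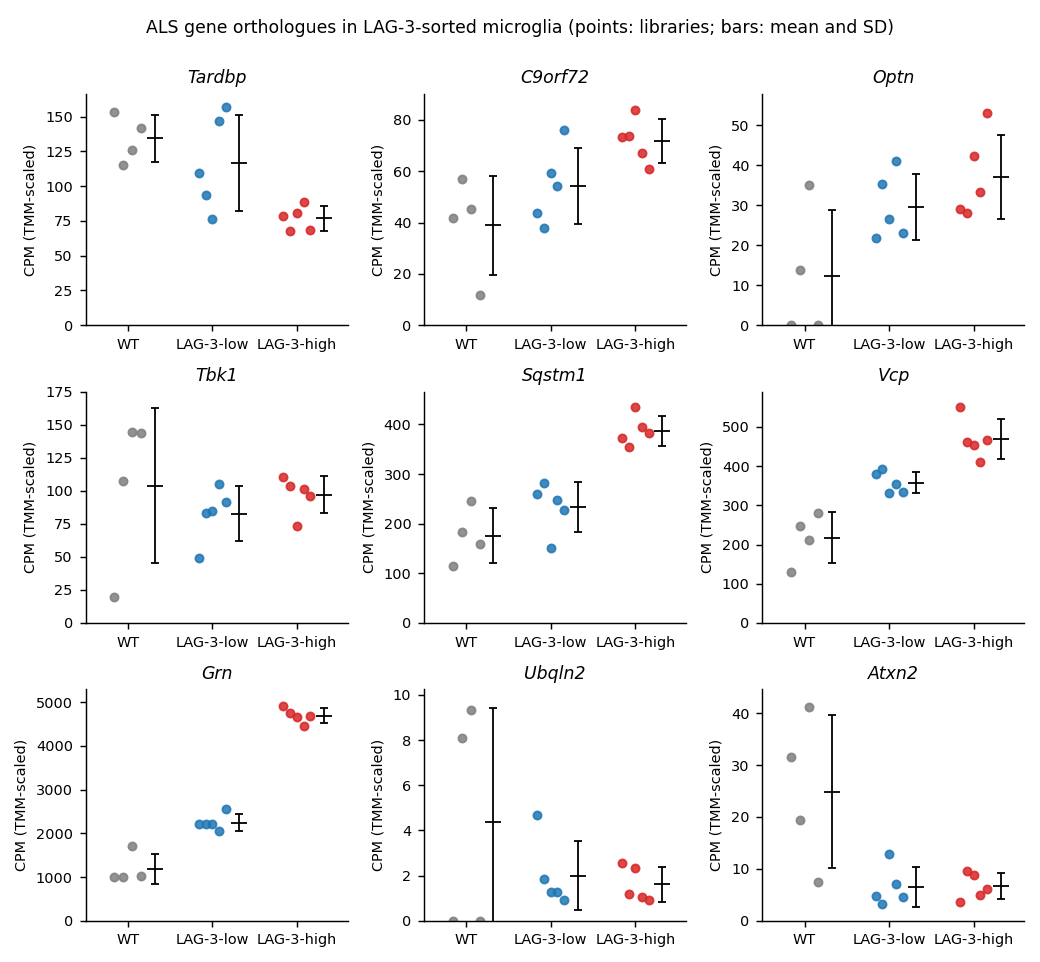
TMM-scaled CPM of each gene in the 4 WT libraries and the 5 libraries of each SOD1G93A sort; points are libraries and the black bar gives the mean and SD. *Grn* forms 3 separate levels (991 to 1703, 2043 to 2551 and 4456 to 4919.6 CPM), and *Optn* and *Ubqln2* are at 0 in 2 WT libraries.

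The remaining 4 genes did not pass against WT. *C9orf72* came closest, with 41.9, 56.8, 45.5 and 11.7 CPM in WT libraries and 73.4, 73.9, 83.7, 67.1 and 61.0 CPM in LAG-3-high ones. The groups did not overlap, and the log2 fold change was 0.88 ± 0.37 (adjusted p = 0.1004, just above the threshold); it passed with DESeq2 (adjusted p = 0.0630) and without WT library 2 (adjusted p = 0.0449) or 4 (adjusted p = 0.0991). *Tbk1* spread widely in WT, with 19.7 CPM in library 1 and 107, 145 and 144 CPM in the others. The libraries of both sorts, at 49.0 to 110.3 CPM, fell between these extremes. *Optn* had no count in WT libraries 1 and 4 and measured 13.9 and 35.1 CPM in the other two. It was present in all LAG-3-low libraries, at 21.8 to 41.1 CPM, and in all LAG-3-high libraries, at 28.1 to 53.1 CPM. *Ubqln2* had no count in the same 2 WT libraries and measured 8.10 and 9.32 CPM in the rest, against 0.915 to 4.69 CPM in the 10 SOD1G93A libraries. Without WT libraries 1 and 4, a choice made after these values were seen, *Ubqln2* was lower in LAG-3-high (log2 fold change -2.39, adjusted p = 0.0336) and LAG-3-low microglia (-2.02, adjusted p = 0.0850), and the calls of the other genes were the same. Fewer genes had a count in WT libraries (16950 to 20292) than in LAG-3-low (21468 to 26762) or LAG-3-high ones (20421 to 21172). The part of this difference in the values against WT was not tested.

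*Grn*, *Sqstm1* and *Vcp* all rose in LAG-3-high against WT microglia, and their promoters are given to show what their sequences have in common. RefSeq promoters were matched for 8 of the 9 genes, all but *Ubqln2*. The 250 bases before the transcription start are printed on the strand of the gene, from GRCm38.p6: chr11:102430257-102430506 (*Grn*, plus), chr11:50210821-50211070 (*Sqstm1*, minus) and chr4:43000508-43000757 (*Vcp*, minus). Capitals mark matches, on either strand, to GGGCGG (the core of the GC box bound by Sp1) or to TGACNNNGC (the core shared by sites for NRF2 and Maf proteins, where N is any base).
Grn: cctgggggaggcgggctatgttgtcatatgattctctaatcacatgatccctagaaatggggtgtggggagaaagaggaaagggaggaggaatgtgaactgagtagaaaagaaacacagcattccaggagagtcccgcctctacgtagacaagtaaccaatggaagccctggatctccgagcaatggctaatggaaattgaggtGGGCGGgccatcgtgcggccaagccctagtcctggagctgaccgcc
Sqstm1: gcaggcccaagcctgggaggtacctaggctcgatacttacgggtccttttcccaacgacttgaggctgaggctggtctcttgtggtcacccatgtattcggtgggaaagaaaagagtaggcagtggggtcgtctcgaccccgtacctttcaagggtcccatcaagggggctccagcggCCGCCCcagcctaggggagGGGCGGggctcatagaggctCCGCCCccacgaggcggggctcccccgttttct
Vcp: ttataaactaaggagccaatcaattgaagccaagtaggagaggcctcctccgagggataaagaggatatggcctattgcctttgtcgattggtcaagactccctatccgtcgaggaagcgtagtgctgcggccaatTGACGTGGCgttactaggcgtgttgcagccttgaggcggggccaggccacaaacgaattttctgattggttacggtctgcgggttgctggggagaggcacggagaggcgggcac

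*Sqstm1* held GGGCGG at positions -72, -53 and -33 from the start and *Grn* at -46, while *Vcp* held none and had 1 match to TGACNNNGC, at -114. CACGTG, the E-box core within sites of the lysosomal regulator TFEB, was in none of the 3 windows; among the 8 genes only *Atxn2* had it, at -152. GGGCGG was present in 7 of the 8 genes and in 32.7% of all 32851 promoter windows, CACGTG in 6.02% and TGACNNNGC in 10.2%. All windows had a mean GC content of 53.2%. *Sqstm1*, *Tardbp*, *C9orf72*, *Tbk1* and *Atxn2* (the window with its matches) had 63.2 to 73.2%, *Grn* 53.6% and *Vcp* 54.8%, and *Optn* lay below the mean. Windows were not matched for GC content, so these shares cannot show whether GGGCGG is enriched in the 8 genes. A match is a run of letters and was not tested as a binding site.

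For each gene that passed in the sort, the genes with the most similar course over the 14 libraries were found by the root mean square (RMS) difference of centred log2 CPM among 8908 genes with at least 10 CPM. Nearest to *Grn* were *Ctsz*, a lysosomal cathepsin, with an RMS difference of 0.178, and *Lrpap1*, a chaperone of LRP receptors, with 0.186. *Sqstm1* was closest to *M6pr*, a mannose 6-phosphate receptor (0.195), and *Bag1*, an HSP70 co-chaperone (0.216). *Vcp* was closest to the translation factor *Eif1* (0.158) and the ubiquitin-conjugating enzyme *Ube2l3* (0.189). *Tardbp* was nearest to *Eif2b1* (0.252) and *Trim12a* (0.271), and *Atxn2*, less closely, to *Fam193a* (0.503) and *Mtg2* (0.512). The RMS difference is a description of these libraries.

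The partners of the 9 proteins were counted in the same way. Of the 10 genes for progranulin receptors, proteases and lysosomal handling, 4 rose and 2 fell from the LAG-3-low to the LAG-3-high sort. *Ctsd*, the protease that cleaves progranulin into granulins, rose by 1.26 ± 0.22 (adjusted p = 0.00526), and *Slpi*, a secreted inhibitor that protects progranulin from elastase, fell from 52.5 to 217 CPM to no count in any LAG-3-high library. *Slpi* and *Elane*, the neutrophil elastase gene on this list, are made by neutrophils, whose markers differ between these sorts. The list of autophagy receptors and ATG8 proteins has 11 genes and also holds *Nfe2l2*, the gene of the transcription factor NRF2. In it 2 rose, *Map1lc3a* (0.97 ± 0.22, adjusted p = 0.0273) and *Gabarap* (0.71 ± 0.17, adjusted p = 0.0339), whose proteins attach to autophagosome membranes. Of 25 other ALS genes tested none rose and 2 fell, the tubulin *Tuba4a* (-2.57 ± 0.55, adjusted p = 0.0197) and the actin regulator *Pfn1* (-0.73 ± 0.20, adjusted p = 0.0742). No gene for autophagosome formation, VCP cofactors, TBK1 adaptors, ubiquilins and shuttles, stress granule partners or the C9orf72 complex passed, while 3, 3, 0, 0, 1 and 0 of them had an unadjusted p under 0.05 and 2, 2, 1, 0, 0 and 0 passed with DESeq2. Over all 115 partner genes tested, 6 rose and 4 fell by edgeR, where 1.59% of all genes rose and 2.80% fell. An unadjusted p under 0.05 was found for 25 of them (12% of all genes), and 18 of 108 passed with DESeq2 (6.85% of all genes). *Smcr8* and *Wdr41*, the partners of C9orf72, had log2 fold changes of 0.36 ± 1.07 and 0.46 ± 0.48.

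Against WT microglia, 29 of the 115 partner genes tested rose and 16 fell in the LAG-3-high sort. Of all genes, 13.8% rose and 16.5% fell there. In the LAG-3-low sort 19 partner genes rose and 15 fell, where 12% of all genes rose and 12.9% fell. The same shares apply to each list count against WT, here and in the next paragraph. In the progranulin handling list 7 of 10 genes rose and 2 fell in the LAG-3-high sort, and 3 rose and 1 fell in the LAG-3-low sort. *Ctsd* rose by 3.10 ± 0.25 (adjusted p = 2.74e-06) and *Psap*, the prosaposin that carries progranulin to lysosomes, by 2.92 ± 0.30 (adjusted p = 1.98e-05) in LAG-3-high microglia. The list's median log2 fold change was 1.26, beside -0.08 for all genes. In the ubiquilin and shuttle list 3 of 5 rose in both comparisons, and *Ubqln1*, a close relative of *Ubqln2*, was higher by 1.22 ± 0.32 (adjusted p = 0.0165) and *Ddi2* by 1.38 ± 0.27 (adjusted p = 0.00291) in LAG-3-high microglia. Of the 14 stress granule and TDP-43 partners 2 rose and 5 fell in LAG-3-high microglia and 5 fell in LAG-3-low microglia, among them *Tial1* (-1.87 ± 0.33, adjusted p = 0.00158, in LAG-3-high) and *Hnrnpa3* (-1.10 ± 0.25, adjusted p = 0.00652). *Ikbke*, the kinase closest to *Tbk1*, was at 0 to 0.102 CPM in WT libraries and at 4.18 to 38.8 CPM in SOD1G93A ones, and *Sting1* was lower in LAG-3-high microglia (-1.40 ± 0.19, adjusted p = 0.000241).

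The other lists were mixed against WT. In LAG-3-high microglia 4 of 11 genes in the list of autophagy receptors and ATG8 proteins rose and 1 fell. *Gabarap* was at 1.40 ± 0.19 (adjusted p = 0.000158). *Nfe2l2*, which is on this list but encodes the transcription factor NRF2, was at 1.03 ± 0.28 (adjusted p = 0.0192). In LAG-3-low microglia 1 rose and 1 fell, *Gabarap* at 0.69 ± 0.18 (adjusted p = 0.0194) and *Gabarapl2* at -0.67 ± 0.22 (adjusted p = 0.0521). Of 17 VCP cofactors 3 rose and 2 fell in LAG-3-high microglia and 1 rose and 2 fell in LAG-3-low; *Nploc4*, which recruits VCP to ubiquitin, rose by 2.06 ± 0.42 (adjusted p = 0.00364) in LAG-3-high, and *Yod1* was at -1.96 ± 0.51 (adjusted p = 0.0154). Autophagosome formation had 2 genes each way in the LAG-3-high sort, with *Atg101* at -1.18 ± 0.27 (adjusted p = 0.00804), and 1 each way in LAG-3-low, with *Atg9a* at 3.04 ± 0.80 (adjusted p = 0.0206). *Smcr8* and *Wdr41* did not pass in either (log2 fold changes of -0.26 to 2.10). Among 25 other ALS genes tested 7 rose and 3 fell in LAG-3-high and 9 rose and 4 fell in LAG-3-low microglia. The mitochondrial gene *Chchd10* had no count in any WT library and was at 3.62 to 9.42 CPM in LAG-3-high ones, and *Ang* was lower in LAG-3-low microglia (-1.94 ± 0.34, adjusted p = 0.00263). Fewer genes were found in the WT libraries, as given above, and the part of this in the *Chchd10* and *Ikbke* values was not tested. *Sod1* rose by 3.65 ± 0.58 (adjusted p = 0.000704) in LAG-3-high microglia; the animals carry a human SOD1 transgene, and whether its reads were counted in this row was not tested.

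**Figure D3:**
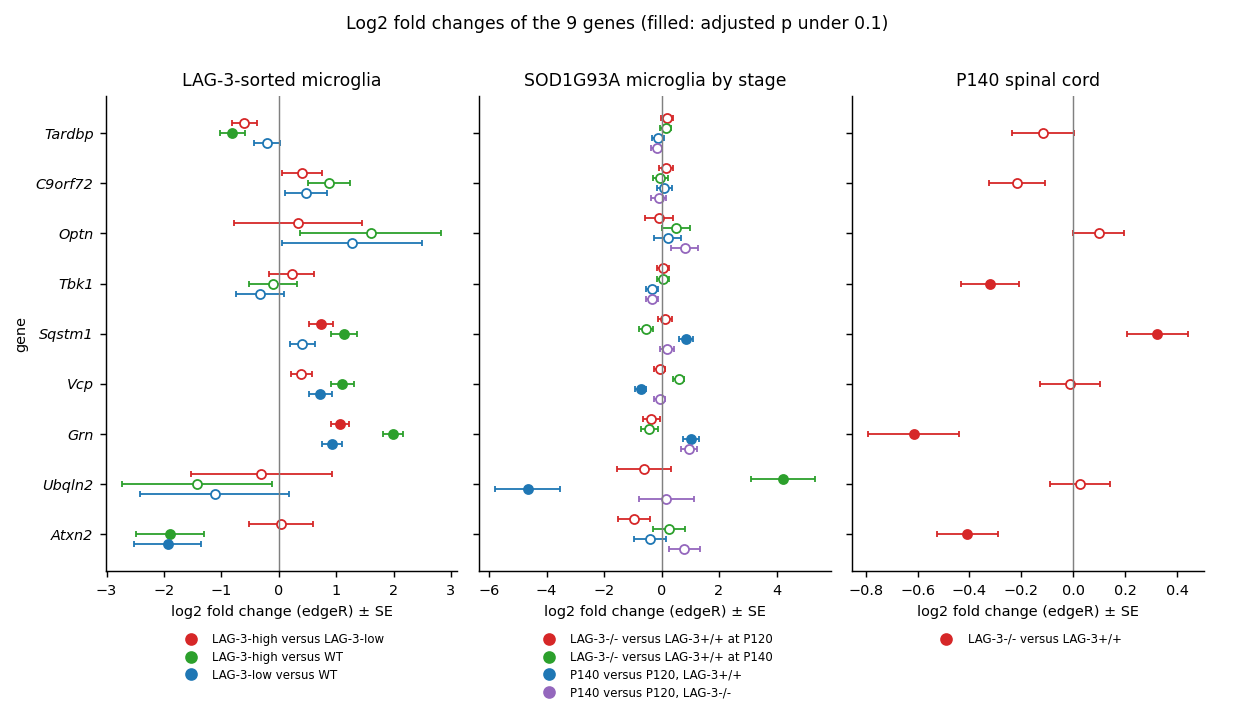
Log2 fold change of each gene with its SE (edgeR) in the 3 comparisons of the LAG-3 sort, the 4 genotype and stage comparisons in microglia and the genotype comparison in cord; filled points have an adjusted p under 0.1, open points do not, and the panels have different scales. *Grn* rises in all 3 sort comparisons, and *Ubqln2* falls with stage in LAG-3+/+ microglia and is higher in LAG-3-/- microglia at P140.

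The stage design asked how these genes change between P120 and P140 and whether the loss of LAG-3 alters that. In SOD1G93A/LAG-3+/+ microglia *Grn* and *Sqstm1* rose with stage, where 11.9% of 18669 genes rose, and *Vcp* and *Ubqln2* fell, where 15.5% of genes fell. The median log2 fold change was -0.13 over the 9 genes and -0.22 over all genes, so the median gene was itself lower at P140. *Grn* went from 2916, 2473 and 2090.2 CPM at P120 to 4631, 5026 and 5589 CPM at P140, which do not overlap. The microglia markers, at 25118 to 28275 CPM at P120 and 33564 to 40226 CPM at P140, did not overlap either, and their part in the *Grn* change was not tested. The log2 fold change of *Grn* was 1.03 ± 0.29 (adjusted p = 0.0324), and without the lowest P120 library it was 0.91 (adjusted p = 0.118). *Sqstm1* went from 235, 244 and 179 CPM to 291, 444 and 445 CPM, a log2 fold change of 0.84 ± 0.25 (adjusted p = 0.0379). Library 1 of the P140 group lay closest to the P120 group, and the call was lost without P120 library 3 or P140 library 2 or 3 (adjusted p = 0.140, 0.112 and 0.118). In CPM without TMM factors, which put the median gene at -0.70, the log2 fold changes were 0.54 for *Grn* (adjusted p = 0.1004) and 0.34 for *Sqstm1* (adjusted p = 0.269).

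*Vcp* fell over the same interval, from 422, 417 and 347 CPM to 255, 188 and 277 CPM, with no overlap. Its log2 fold change was -0.72 ± 0.19 (adjusted p = 0.0266), and it was 0.24 with length and GC offsets (adjusted p = 0.519) and -0.13 with the centred offsets (adjusted p = 0.715). So *Vcp* was higher in SOD1G93A than in WT microglia in the sort and lower at P140 than at P120 within SOD1G93A/LAG-3+/+ microglia. *Ubqln2* was rare throughout, with 4.44, 2.96 and 6.32 CPM at P120. At P140 the 3 libraries held 1, 1 and 11 counts (0.0415, 0.0569 and 0.423 CPM), against 160 to 247 counts per library at P120. The log2 fold change was -4.66 ± 1.13 (adjusted p = 0.0171); it passed in every alternative tried, but it rests on these few counts at P140, and its size depends on how so few reads were fitted.

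Fewer genes were found in some of the libraries with little *Ubqln2*. The 3 P140 LAG-3+/+ libraries had 18796 to 20409 genes with a count and P140 LAG-3-/- library 1 had 20176, while the other 2 libraries of that group had 23794 and 23348 and the P120 libraries 23513 to 24850. P120 LAG-3-/- library 3 had 1.003 CPM of *Ubqln2* with 23764 genes found. The part of this difference in the *Ubqln2* values was not tested. *Tardbp*, *C9orf72*, *Optn*, *Tbk1* and *Atxn2* had log2 fold changes of -0.40 to 0.21 with stage in LAG-3+/+ microglia, and none passed. The direction of *Tardbp*, the longest of the 9 transcripts, depended on the length and GC offsets, under which its log2 fold change was 1.33 (adjusted p = 0.0326), or 0.95 when centred (adjusted p = 0.0663), in place of -0.13.

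In SOD1G93A/LAG-3-/- microglia none of the 9 genes passed between P120 and P140 by edgeR (0.0% of all genes passed). DESeq2 called none (2.43% of all genes), and 1 had an unadjusted p under 0.05 (8.88% of all genes). That gene was *Grn*, at 1911, 2618 and 1300.2 CPM at P120 and 5149, 3677 and 2499 CPM at P140. P140 library 3 overlapped the P120 range. Its log2 fold change of 0.96 ± 0.29 (adjusted p = 0.475) was close in size to that in LAG-3+/+ microglia, and the interaction was -0.07 ± 0.41 (adjusted p = 0.971). *Sqstm1* measured 176, 293 and 246 CPM and then 327, 223 and 259 CPM, a log2 fold change of 0.18 ± 0.25 (adjusted p = 0.921). *Vcp* was at 369, 383 and 386 CPM and then 355, 438 and 292 CPM, and *Ubqln2* at 5.30, 2.67 and 1.003 CPM and then 1.03, 4.63 and 4.43 CPM. Both pairs of groups overlapped, with log2 fold changes of -0.07 ± 0.19 and 0.17 ± 0.95.

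**Figure D4:**
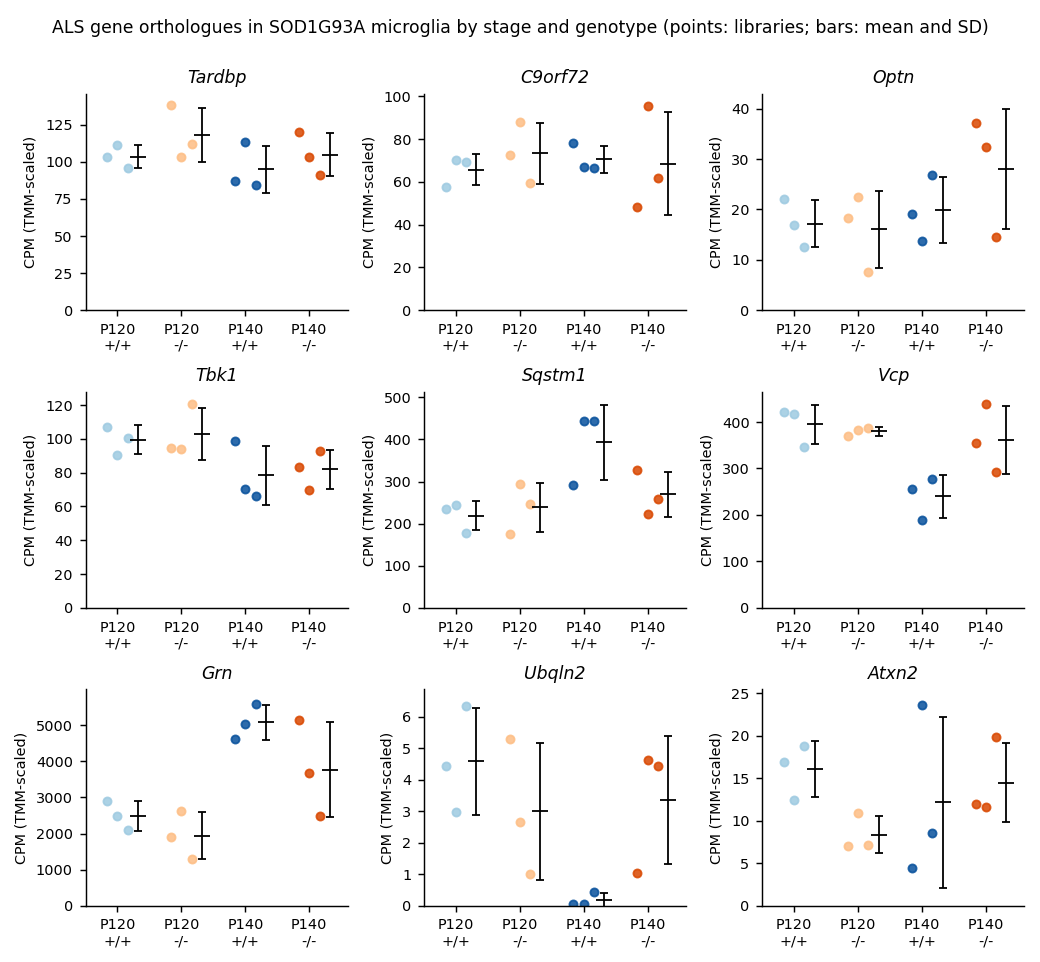
TMM-scaled CPM of each gene in the 12 microglia libraries by stage (P120, P140) and genotype (LAG-3+/+, LAG-3-/-); points are libraries, 3 per group, and the black bar gives the mean and SD. *Ubqln2* is at 0.0415 to 0.423 CPM in P140 LAG-3+/+ libraries and at 1.003 to 6.32 CPM in all others, and *Vcp* is lowest in P140 LAG-3+/+ libraries.

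The test of whether stage changes differ between genotypes called none of the 9 genes by edgeR (0.171% of all genes passed). DESeq2 called 1 (7.14% of all genes), and 2 had an unadjusted p under 0.05 (13.6% of all genes). Those were *Ubqln2* (interaction 4.83 ± 1.43, adjusted p = 0.220; 0.00912 by DESeq2) and *Vcp* (0.65 ± 0.27, adjusted p = 0.333). *Sqstm1*, called with stage in LAG-3+/+ and not in LAG-3-/- microglia, had an interaction of -0.66 ± 0.35 (adjusted p = 0.434), so a difference between genotypes was not shown. The other 6 genes had interactions of -0.20 to 1.20 on the log2 scale.

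At P120 none of the 9 genes passed between genotypes by edgeR, where 0.0107% of all genes passed. None passed by DESeq2 (0.879% of all genes) or had an unadjusted p under 0.05 (2.95% of all genes). The log2 fold changes ranged from -0.95 ± 0.55 for *Atxn2*, at 6.98, 10.9 and 7.17 CPM against 16.9, 12.5 and 18.8 CPM in LAG-3+/+, to 0.19 ± 0.19 for *Tardbp*. The *Atxn2* groups did not overlap, and its adjusted p was 1. At P140 *Ubqln2* was higher in LAG-3-/- microglia, by 4.22 ± 1.10 on the log2 scale (adjusted p = 0.0583), where 7.22% of all genes were higher. This compares 26, 194 and 132 counts with the 1, 1 and 11 counts described above, and library 1 of the LAG-3-/- group, with fewer genes found, lay nearest to the LAG-3+/+ libraries. The call was lost when P140 LAG-3+/+ library 2 or LAG-3-/- library 2 or 3 was left out (adjusted p = 0.155, 0.191 and 0.175). The share of all genes called here also moved: 1908 genes passed in either direction, 0 when only the groups compared were fitted, 663 and 763 without P140 LAG-3+/+ library 2 or 3, and 4140, 95 and 151 without LAG-3-/- library 1, 2 or 3.

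*Vcp* came next at P140, at 355, 438 and 292 CPM in LAG-3-/- against 255, 188 and 277 CPM in LAG-3+/+ libraries. The groups did not overlap, and the log2 fold change of 0.59 ± 0.19 did not pass (adjusted p = 0.102; 0.0702 by DESeq2); with length and GC offsets it was -0.08, and 0.14 when these were centred. *Sqstm1* was at 327, 223 and 259 CPM against 291, 444 and 445 CPM, a log2 fold change of -0.54 ± 0.25 (adjusted p = 0.210). *Grn* changed by -0.43 ± 0.29 (adjusted p = 0.397), with library 1 of the LAG-3-/- group within the LAG-3+/+ range and the other 2 below it. *Tardbp*, *C9orf72*, *Optn*, *Tbk1* and *Atxn2* had log2 fold changes of -0.04 to 0.49. The neutrophil markers summed to 3.92 to 3393 CPM in the P140 LAG-3+/+ and to 4.02 to 4404 CPM in the P140 LAG-3-/- libraries, 1630 to 2474 CPM in the P120 LAG-3+/+ and 2.76 to 4.55 CPM in the P120 LAG-3-/- ones.

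Among the partner genes, stage in LAG-3+/+ microglia gave 26 higher and 34 lower of 114 tested, where 11.9% of all genes were higher and 15.5% lower. The ATG8 proteins *Map1lc3b* (1.25 ± 0.27, adjusted p = 0.0116) and *Gabarapl2* (1.30 ± 0.29, adjusted p = 0.0129) led a list with 5 of 11 higher and 3 lower. Autophagosome formation had 5 higher and 7 lower of 21, with *Becn1* at 1.41 ± 0.23 and the kinase *Ulk2* at -2.46 ± 0.40 (adjusted p = 0.00568 for both). In the ubiquilin list 4 of 5 fell, among them *Ubqln4* (-3.21 ± 0.97, adjusted p = 0.0403) and *Ddi2* (-1.01 ± 0.30, adjusted p = 0.0398). In the progranulin handling list *Lrp1* (-1.49 ± 0.29, adjusted p = 0.00858) and the progranulin receptor *Sort1* (-1.70 ± 0.41, adjusted p = 0.0167) fell while *Grn* rose. This list had 2 of 9 higher and 3 lower. Of the RNA-binding partners 5 of 14 fell and none rose, with *Caprin1* at -1.94 ± 0.18 (adjusted p = 0.00185) and *G3bp2* at -1.07 ± 0.19 (adjusted p = 0.00638). The VCP cofactors split 5 higher and 3 lower of 17, with *Ubxn1* at 1.18 ± 0.25 (adjusted p = 0.0110). *Smcr8* fell (-1.54 ± 0.60, adjusted p = 0.0942) while *Wdr41* was at -0.28 ± 0.29. The TBK1 adaptor *Tank* (1.42 ± 0.24, adjusted p = 0.00581) and *Sting1* (0.96 ± 0.27, adjusted p = 0.0290) were the 2 of 10 that rose, and 1 fell. Other ALS genes had 7 of 25 higher, with *Pfn1* at 1.28 ± 0.20 (adjusted p = 0.00557) and *Hnrnpa2b1* at 0.98 ± 0.17 (adjusted p = 0.00636), and 7 lower.

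Between genotypes at P140, 10 partner genes were higher in LAG-3-/- microglia and 7 lower, where 7.22% of all genes were higher and 3% lower, shares that move with the libraries as given above. *Caprin1* was the only partner gene with an interaction that passed by edgeR (1.86 ± 0.25, adjusted p = 0.0374). No gene of the whole table passed that test with sex as a term, with the replicate block, without any 1 of the P120 LAG-3+/+ libraries, or without library 2 or 3 of either LAG-3-/- group, and without P120 LAG-3-/- library 1 the single gene that passed was lower, so the *Caprin1* call was lost in each. The interaction had an unadjusted p under 0.05 for 27 partner genes (13.6% of all genes) and passed for 14 by DESeq2 (7.14%). *Caprin1* (1.87 ± 0.18, adjusted p = 0.00451) and *G3bp2* (0.65 ± 0.19, adjusted p = 0.0760) were the 2 of 14 RNA-binding partners that were higher at P140. *Tank* was lower (-0.94 ± 0.24, adjusted p = 0.0534), *Map1lc3b* was at -0.86 ± 0.27 (adjusted p = 0.0928) and *Tollip* at 1.21 ± 0.34 (adjusted p = 0.0714), in a list with 2 of 11 higher and 1 lower. *Atg2b* (3.71 ± 0.81, adjusted p = 0.0383) and *Atg3* (-1.17 ± 0.24, adjusted p = 0.0314) led a list with 2 of 21 each way, *Nploc4* (2.49 ± 0.73, adjusted p = 0.0785) and *Ufd1* (-1.14 ± 0.24, adjusted p = 0.0337) were the 2 VCP cofactors called, and *Ddi2* (1.10 ± 0.31, adjusted p = 0.0682) and *Lrp1* (0.97 ± 0.29, adjusted p = 0.0822) the single calls of their lists. *Dctn1* (1.74 ± 0.43, adjusted p = 0.0501) was the 1 other ALS gene that was higher, and *Pfn1* (-0.84 ± 0.20, adjusted p = 0.0456) 1 of 2 that were lower. At P120 between genotypes, and with stage in LAG-3-/- microglia, none of the 114 partner genes passed by edgeR. An unadjusted p under 0.05 was found for 4 and 15 of them, beside 2.95% and 8.88% of all genes, and 2 and 5 passed with DESeq2, beside 0.879% and 2.43%.

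In whole spinal cord at P140 the question was how loss of LAG-3 alters the tissue. *Atxn2*, *Grn* and *Tbk1* were lower in LAG-3-/- cord, where 23.9% of 17702 genes were lower, and *Sqstm1* was higher, where 23.1% were higher. All 4 changes were below 2-fold. In a bulk sample, fewer cells of a type and less RNA per cell cannot be told apart. *Grn* measured 377, 257 and 340.0 CPM in LAG-3+/+ and 240.0, 166 and 230.2 CPM in LAG-3-/- cord, without overlap. Its log2 fold change was -0.61 ± 0.17 (adjusted p = 0.0175). The 7 microglia markers moved with it, summing to 1103 to 1386 CPM in LAG-3+/+ and 789.8 to 1078 CPM in LAG-3-/- cord; their part in the *Grn* value was not tested.

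*Atxn2* measured 94.7, 109 and 94.3 CPM in LAG-3+/+ and 69.8, 69.9 and 85.3 CPM in LAG-3-/- cord. All LAG-3-/- values were below all LAG-3+/+ ones, and the log2 fold change was -0.41 ± 0.12 (adjusted p = 0.0167). *Tbk1* was at 33.3, 39.4 and 34.2 CPM and at 26.0, 29.8 and 29.7 CPM, also without overlap, with a log2 fold change of -0.32 ± 0.11 (adjusted p = 0.0416). The rise of *Sqstm1*, from 426, 478 and 461 CPM to 596, 563 and 549.5 CPM, came to 0.32 ± 0.12 (adjusted p = 0.0466). The *Tbk1* call was lost without LAG-3+/+ library 2 or LAG-3-/- library 1 (adjusted p = 0.155 and 0.110), and that of *Sqstm1* without LAG-3+/+ library 3 or LAG-3-/- library 1 or 2 (adjusted p = 0.151, 0.122 and 0.105).

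*Vcp* and *Ubqln2* differed by less than the spread between cord libraries. *Vcp* measured 381, 419.9 and 403 CPM against 378, 389 and 427 CPM (log2 fold change -0.01 ± 0.12), and *Ubqln2* 173, 212 and 187 CPM against 187, 204 and 191 CPM (0.02 ± 0.12). *Ubqln2* stood at 173 to 212 CPM in cord and at 9.32 CPM or less in every sorted microglia library, in tables scaled separately. *Optn* changed by 0.10 ± 0.10, *C9orf72* by -0.22 ± 0.11 and *Tardbp* by -0.12 ± 0.12, none of which passed (adjusted p = 0.461, 0.136 and 0.472). The direction of *Tardbp* again depended on the length and GC offsets, with a log2 fold change of 0.40 (adjusted p = 0.0363), or 0.42 when centred (adjusted p = 0.0292).

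**Figure D5:**
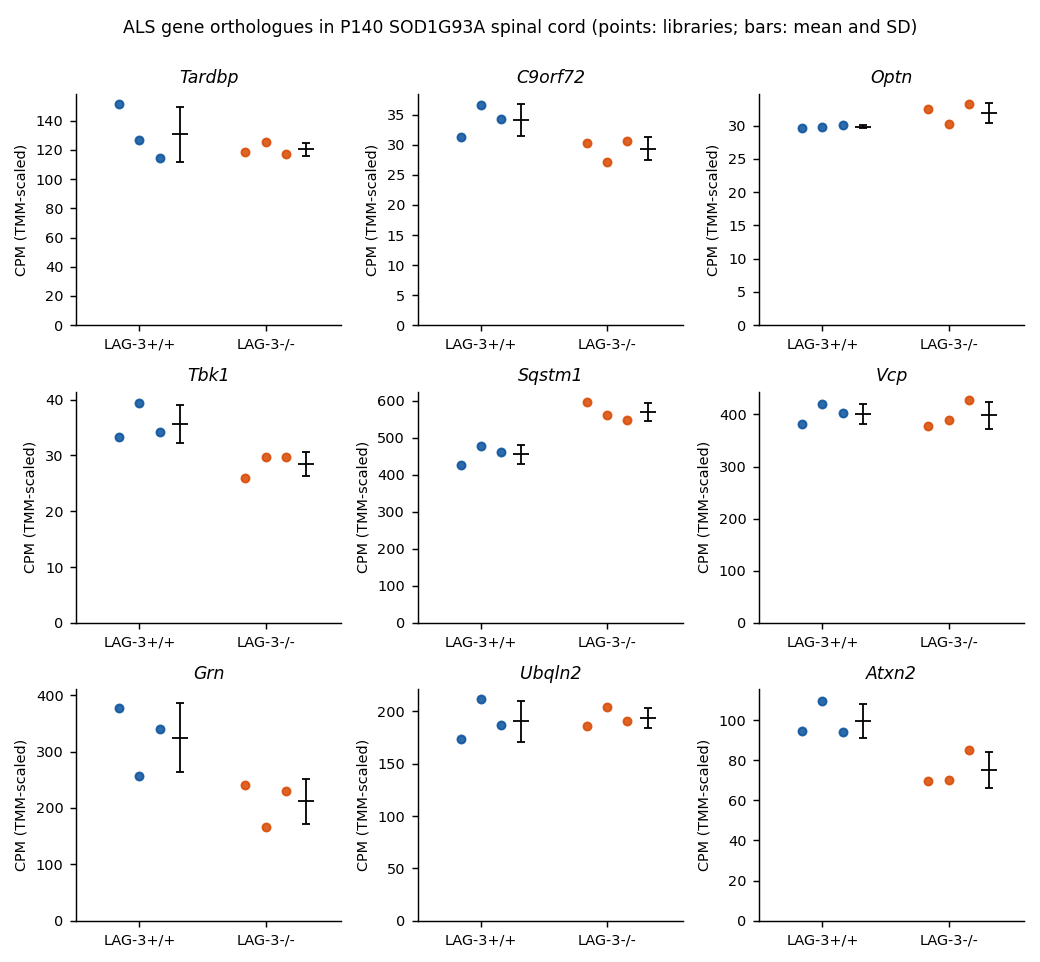
TMM-scaled CPM of each gene in the 3 LAG-3+/+ and 3 LAG-3-/- libraries of P140 SOD1G93A spinal cord; points are libraries and the black bar gives the mean and SD. *Grn*, *Tbk1* and *Atxn2* are lower and *Sqstm1* higher in LAG-3-/- cord without overlap, and *Vcp* and *Ubqln2* overlap.

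Of the partner genes, 23 rose and 38 fell in LAG-3-/- cord among 117 tested, where 23.1% of all genes rose and 23.9% fell. The same shares apply to each list count that follows. In the list of autophagy receptors and ATG8 proteins 6 of 11 rose and 2 fell, led by *Map1lc3a* (0.998 ± 0.126, adjusted p = 0.000351) and *Gabarapl2* (0.74 ± 0.13, adjusted p = 0.00136). In the progranulin handling list 5 of 8 genes were lower and none passed as higher, where 23.9% of all genes were lower, among them *Lrp1* (-0.71 ± 0.14, adjusted p = 0.00278). *Smcr8* fell (-0.84 ± 0.12, adjusted p = 0.000622) and *Wdr41* was at -0.04 ± 0.10. Of the TBK1 list 2 of 10 rose and 3 fell, with *Irf3* at 0.52 ± 0.13 (adjusted p = 0.00872) and *Traf3* at -0.51 ± 0.11 (adjusted p = 0.00358). VCP cofactors had 4 higher and 8 lower of 17, with *Ubxn6* at 0.82 ± 0.11 (adjusted p = 0.000369) and *Ubxn1* at 0.74 ± 0.12 (adjusted p = 0.000833). Of 14 RNA-binding partners 7 fell and none rose, including *Ddx6* (-0.58 ± 0.10, adjusted p = 0.00129) and *Ddx3x* (-0.74 ± 0.14, adjusted p = 0.00189). Autophagosome formation had 2 higher and 6 lower of 21, with *Atg101* at 1.05 ± 0.12 (adjusted p = 0.000259) and *Atg2b* at -0.99 ± 0.14 (adjusted p = 0.000618), and the ubiquilin list 1 each way, with *Ddi2* at -0.65 ± 0.10 (adjusted p = 0.000884). Other ALS genes had 8 of 29 higher and 5 lower, led by *Erbb4* (-1.08 ± 0.12, adjusted p = 0.000248) and the neuronal filament gene *Prph* (1.39 ± 0.18, adjusted p = 0.000597). Oligodendrocyte markers summed to 14376 to 15656 CPM in LAG-3+/+ and 20466 to 28477 CPM in LAG-3-/- cord, astrocyte markers to 12245 to 14081 and 7062 to 11531 CPM, and motor neuron markers to 20.5 to 35.9 and 34.6 to 48.7 CPM. The part of these shifts in the cord values was not tested.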

How the data were processed

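RNA-seq of 32 libraries in 3 tables was analysed. According to the study's methods, the authors trimmed reads with Trim Galore 0.6.7, quantified them with Salmon 1.9.0 against a GRCm39 transcriptome and summed transcripts to genes with tximport in R 4.2.1; the annotation release is not given in the sources used here. The deposited values are expected counts, estimated per gene and not normalized. Microglia libraries were made from amplified full-length cDNA and cord libraries with a directional kit.

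Here the expected counts were rounded, filtered (filterByExpr, minimum count 10 and total 15), scaled by TMM and tested with edgeR 4.0.16 (robust quasi-likelihood F-test, all groups of a table in 1 fit, R 4.3.3). A gene passed at a Benjamini-Hochberg adjusted p under 0.1 over all genes tested. SE is the log2 fold change divided by the root of F. Totals were 9403475 to 22850586 (sort), 23981406 to 49512632 (stage) and 19430102 to 26994524 counts (cord); identifiers without annotation held at most 0.0514% of counts. No 2 libraries of a group agreed within sampling noise. The script was tested on simulated data: of 200 genes changed 4-fold it called 87 between the LAG-3 sorts (16508 genes), 107 between genotypes at P120 (18669) and 197 in cord (17702). It also called 7, 3 and 20 genes that had not been changed, in the same order.

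The genes and the partner lists were chosen with earlier results of these data known. All 9 genes were named; from each list, the 2 passing genes with the smallest adjusted p, or all genes of a list of 3 or fewer. Some genes that this rule names are not reported here. Promoters came from RefSeq (GRCm38.p6). Alternatives were RLE scaling, no TMM, other filters and thresholds, DESeq2 1.42.0, sex or replicate number as a term, length and GC offsets, only the groups compared, and leaving out each library.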

Additional observations from a re-analysis of the deposited data

Results flagged for a closer look

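*Grn* in WT microglia was set apart by 1 library: library 3 measured 1703 CPM, the next highest library 1029 CPM, and that gap made up 0.947 of the group's range (n = 4). *Ubqln2* in LAG-3-low microglia had its highest value in library 1, at 4.69 CPM against 1.86 CPM for the next (0.749 of the range, n = 5). These were 2 flags among 27 groups tested, and chance flags about 1 group in 20.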

How the results depend on the processing

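For the 19 changes of the 9 genes that passed, 378 values were computed under alternatives, of which 373 kept their direction, 57 of them without passing. The 5 that reversed all came from the length and GC offsets, which also moved the median of all genes: *Sqstm1* (-0.080) and *Vcp* (-0.025) in LAG-3-high against WT, *Vcp* (-0.50) and *Grn* (-0.27) in LAG-3-low against WT, and *Vcp* with stage in LAG-3+/+ microglia (0.24). Centring the offsets on the median gene, like leaving out WT libraries 1 and 4, was chosen after seeing the data. Between the LAG-3 sorts the 2 passing genes became 1 (*Grn*) with a minimum log2 fold change of 1, an adjusted p under 0.05, RLE factors, no low-count filter, sex as a term, the replicate block or the offsets, and 4 with only the groups compared; without TMM the 2 were *Grn* and *Tardbp*. LAG-3-high against WT went from 5 to 3 without the filter and with the offsets. LAG-3-low against WT went from 3 to 1 with the minimum fold and with only the groups compared. At P140 between genotypes the 1 gene became 0 at an adjusted p under 0.05, with the replicate block and with only the groups compared, and 2 without TMM, with a mean of at least 10 counts and with DESeq2. With stage in LAG-3+/+ microglia 4 became 2 with the minimum fold, for the interaction 0 became 1 with DESeq2, and in cord 4 became 0 with the minimum fold. Leaving out 1 library gave 1 to 1 passing genes between the sorts, 5 to 6 and 3 to 4 against WT (LAG-3-high, LAG-3-low), 0 to 0 between genotypes at P120, 0 to 2 at P140, 2 to 4 and 0 to 0 with stage (LAG-3+/+, LAG-3-/-), 0 to 1 for the interaction and 2 to 5 in cord. The lowest values came without P120 LAG-3+/+ library 3 (stage) and without LAG-3-/- library 1 (cord). The cause of these shifts was not tested.

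Libraries with the same number did not deviate together: correlations of their deviations were -0.00134 to 0.0674 in the sort, -0.119 to 0.0662 in the stage design and -0.0300 to 0.0223 in cord, and every library matched its own number best in no table. With the replicate block *Sqstm1* between the sorts had an adjusted p of 0.230, *Atxn2* of 0.113 and 0.107 against WT, and *Ubqln2* at P140 of 0.106. *Optn* and *Ubqln2* had 0 counts in WT libraries 1 and 4, which held 18882504 and 18384965 counts in all.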
